A study of Rattus norvegicus with 2 samples.

Results

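The genes described here are 10 genes of neutrophils and macrophages in the rat retina: *Lcn2*, *Slpi*, *Lyz2*, *Itgam*, *Itgb2*, *Ptprc*, *Cd68*, *Mpo*, *Irg1* and *Lilrb4*. They were found by gene symbol, and each symbol had its own entry among the 32662 genes of the expression table. The genes were picked as a leukocyte group with the values of these same libraries known, so the differences below are a description, and no test was made of them. Retinal RNA of Long-Evans rats aged 2 months was sequenced after depletion of ribosomal RNA, and the methods of the study name female rats and a retina for each sample. The CTRL retina had a sham procedure. The IR12 retina had ischemia followed by reperfusion (IR), that is, a stop of the blood supply and its return, and was collected 12 hours after reperfusion. Expression is given as FPKM, which as a rule scales the fragments of a gene to its transcript length and to the mapped reads of the library, as the authors deposited it. There is 1 library per condition and so no replicate, which means that no value has a spread and neighbouring values in any order of levels cannot be separated from each other.

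Neutrophils are short-lived blood leukocytes that leave the vessels within hours of tissue injury, and monocytes follow them and become macrophages. Both adhere to the vessel wall through integrins, carry antimicrobial proteins in granules or lysosomes, and make reactive oxygen. The healthy retina has its own resident macrophages, the microglia, which share many genes with the incoming cells, among them *Itgam*, *Ptprc* and *Cd68*.

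The retinal origin of both libraries was clear from the rod photoreceptor genes. *Sag*, the arrestin gene of rods, had an FPKM of 2482 in CTRL against 4703 in IR12. *Gapdh*, a glycolytic enzyme often used as a reference, had 716 in CTRL and 690.1 in IR12, while cytoplasmic actin (*Actb*) had 260 in CTRL and 537 in IR12. The purine salvage enzyme *Hprt1*, which every cell uses, was listed at 0 in both libraries, so a 0 in this table is reported only as listed at 0. *Hprt1* was named after its values were seen.

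Of the 10 genes, 9 had a higher FPKM in IR12 (51.8% of the 13599 genes with an FPKM of at least 1 in either library did), 0 had a lower one, and *Mpo* was listed at 0 in both libraries. The log2 ratio was taken of FPKM + 1, IR12 over CTRL, which understates the change of genes with low values, and on which a gene under 1 FPKM in both libraries cannot pass 2-fold. On this scale 8 of the 10 genes lay at least 2-fold higher in IR12 and 0 at least 2-fold lower, beside 6.56% and 6.12% of the 13599 genes. At least 4-fold higher were 5 of the 10, beside 1.91% of the 13599. The log2 ratios had a median of 2.03 in the 10 genes and of 0.02 in the 13599 genes. Since the genes were picked from this contrast, nothing is read from these shares. In this bulk tissue, more cells of a type and more RNA per cell cannot be told apart, and neither can fewer cells and less RNA per cell.

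In CTRL, 4 of the 10 genes were listed at 0, which is not taken as absence, and 1, *Lyz2*, had an FPKM of at least 1. In IR12, 9 had an FPKM of at least 1, and 8, with *Slpi*, *Irg1* and *Lilrb4* of the listed zeros among them, were under 1 in CTRL and at least 1 in IR12, beside 10.4% of the 6142 genes that were under 1 in CTRL and above 0 in either library. The summed FPKM of the 10 genes was 11.9 in CTRL and 118 in IR12. *Lyz2* made up 81.5% of that sum in CTRL and 65.0% in IR12, and it held 63.1% of the difference between the sums. Without *Lyz2* the sums were 2.21 and 41.4.

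**Figure D1:**
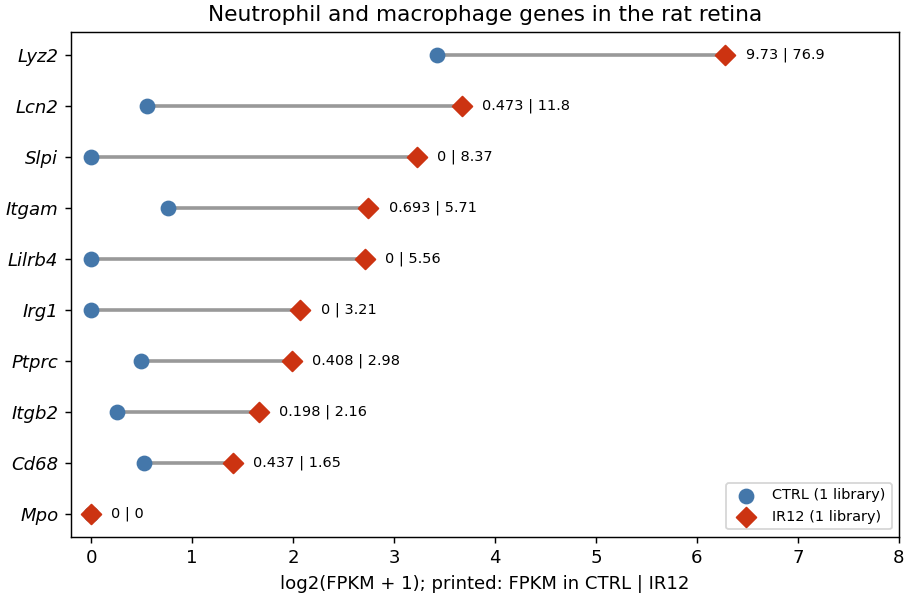
FPKM of the 10 neutrophil and macrophage genes in CTRL (circles) and IR12 (diamonds), 1 library each, on a log2(FPKM + 1) axis and ordered by the level in IR12, with both FPKM values printed beside each gene. The diamond lies to the right of the circle for 9 genes, and *Mpo* is at 0 in both libraries.

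The DNA just before the start of a gene holds much of its promoter. RefSeq sequences of the build GRCr8 were matched for 8 of the 10 genes, 7 by symbol and *Irg1* through its newer name *Acod1*. The 250 bases before the RefSeq start are shown for 4 of them. *Lcn2* and *Lyz2* had the highest levels in IR12, *Irg1* was among the genes listed at 0 in CTRL and present in IR12, and *Mpo* was listed at 0 in both. Capitals mark every match, on either strand, to 4 motifs. The loose NF-kB-type motif is GGG and CC with any 5 bases between them. The C/EBP-type motif has the letters TTGCNNAA, where N is any base. The PU.1-type motif was searched as AGGAAGT, and the motif of the TATA box as TATAAA. NF-kB is a factor of inflammatory signalling, and C/EBP factors and PU.1 act in myeloid cells.
*Lcn2*, chr3:36081781-36082030, minus strand: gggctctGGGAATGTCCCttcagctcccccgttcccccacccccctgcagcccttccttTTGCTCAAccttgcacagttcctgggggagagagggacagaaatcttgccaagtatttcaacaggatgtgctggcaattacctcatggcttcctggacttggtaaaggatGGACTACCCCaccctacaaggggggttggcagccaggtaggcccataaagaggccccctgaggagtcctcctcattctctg
*Lyz2*, chr7:54798012-54798261, minus strand: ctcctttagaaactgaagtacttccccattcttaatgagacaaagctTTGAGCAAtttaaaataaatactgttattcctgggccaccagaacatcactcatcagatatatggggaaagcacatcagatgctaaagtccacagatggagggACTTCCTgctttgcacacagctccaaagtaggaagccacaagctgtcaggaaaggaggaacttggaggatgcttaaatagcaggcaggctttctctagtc
*Irg1* (*Acod1*), chr15:86286289-86286538, plus strand: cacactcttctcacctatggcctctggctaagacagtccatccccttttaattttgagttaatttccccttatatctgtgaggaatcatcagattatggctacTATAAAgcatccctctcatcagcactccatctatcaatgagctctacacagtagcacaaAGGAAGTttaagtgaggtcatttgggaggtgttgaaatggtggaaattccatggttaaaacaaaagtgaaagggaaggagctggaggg
*Mpo*, chr10:73092152-73092401, plus strand: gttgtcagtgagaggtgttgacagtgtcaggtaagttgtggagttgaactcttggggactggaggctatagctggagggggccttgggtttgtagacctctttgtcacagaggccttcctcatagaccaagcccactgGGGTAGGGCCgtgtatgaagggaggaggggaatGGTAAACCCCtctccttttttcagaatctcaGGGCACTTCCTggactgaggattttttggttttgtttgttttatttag

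The PU.1-type letters were found in 4 of the 8 matched genes (*Lyz2*, *Ptprc*, *Mpo* and *Irg1*) and in 7.08% of the 33469 RefSeq windows of the same length. The C/EBP-type letters were found in 3 (*Lcn2*, *Lyz2* and *Itgam*) and in 9.22% of all windows, and the TATA box letters in 1 (*Irg1*) and in 12.9%. The NF-kB-type motif was searched in 3 forms. The loose form was found in 3 of the 8 (*Lcn2*, *Mpo* and *Lilrb4*) and in 42.3% of all windows. Because it was so common, it was narrowed to GGGA and CC with any 4 bases between them after its matches had been seen, which left 1 (*Lcn2*) and 16.4% of all windows. The NF-kB consensus with purine and pyrimidine positions, a stricter form, was also found in 1 (*Lcn2*) and in 6.33% of all windows. In *Mpo* a loose NF-kB-type match overlaps the PU.1-type match, and in *Lcn2* matches on both strands overlap, 243 to 233 bases before the start. All motifs were picked with these sequences in view, so the counts are a description of letters and not evidence of a binding site. *Mpo*, listed at 0 in both libraries, has the PU.1-type letters too.

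The secreted proteins come first. *Lcn2* encodes lipocalin 2, which withholds iron from bacteria by binding their siderophores and is stored in neutrophil granules, although injured epithelia and astrocytes make it as well. Its FPKM was 0.473 in CTRL and 11.8 in IR12, a ratio of 24.9 and the highest ratio among the 6 genes above 0 in both libraries. The log2 ratio of FPKM + 1 was 3.12, at rank 94 of the 13599 genes. The level in CTRL was above that of 2.49% of these genes, and the level in IR12 above that of 47.5%. The table lists *Lcn2* at chr3:11414186-11417546 on rn6.

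*Slpi* encodes the secretory leukocyte protease inhibitor, which blocks neutrophil elastase and is also made by epithelia. It was listed at 0 in CTRL but reached an FPKM of 8.37 in IR12 (chr3:160799981-160802433 on rn6). Its log2 ratio of FPKM + 1 was 3.23, at rank 81, the largest of the 10 genes as deposited. On this scale *Slpi* and *Lcn2* were close, and with 1 library each their order has no error to set it against. The order also depends on the scale. With both columns scaled to the same sum *Slpi*, at 3.37, came after *Lyz2* at 3.45 and *Lcn2* at 3.41, and with a pseudocount of 0.1 *Slpi* (6.40), *Lilrb4* (5.82) and *Irg1* (5.05) all stood above *Lcn2* (4.38).

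*Lyz2* encodes lysozyme, the enzyme that cuts bacterial cell walls and is abundant in macrophages and neutrophils. It had the highest level of the 10 genes in both libraries, with an FPKM of 9.73 in CTRL against 76.9 in IR12 (chr7:60335969-60341264 on rn6). The ratio was 7.90 and the log2 ratio of FPKM + 1 was 2.86, at rank 122. In IR12 the level was above that of 89.7% of the 13599 genes, against 44.0% in CTRL.

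*Mpo* encodes myeloperoxidase, the enzyme of the primary granules of neutrophils that makes hypochlorous acid, and its transcript is mainly made by neutrophil precursors in the bone marrow. It was listed at 0 in both libraries (chr10:75087892-75098260 on rn6). It is the 1 gene of the 10 without a value above 0.

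*Itgam* (CD11b) and *Itgb2* (CD18) encode the alpha and beta chains of the integrin Mac-1, with which neutrophils, macrophages and microglia adhere to ICAM-1 and to complement fragments. *Itgam* had an FPKM of 0.693 in CTRL against 5.71 in IR12, a ratio of 8.25 and a log2 ratio of FPKM + 1 of 1.99, at rank 268. *Itgb2* had 0.198 in CTRL and 2.16 in IR12 (chr20:11777783-11815647 on rn6), a ratio of 10.9 and a log2 ratio of 1.40, at rank 502. The FPKM of *Itgam* over that of *Itgb2* was 3.50 in CTRL and 2.64 in IR12, so the alpha chain stood above the beta chain in both libraries. The locus listed for *Itgam*, chr1:199495298-199623960 on rn6, is listed for 2 genes, the other being the related integrin gene *Itgax*, so that how reads were divided between them was not checked.

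*Ptprc* encodes CD45, the surface tyrosine phosphatase carried by all nucleated leukocytes, microglia included. Its FPKM was 0.408 in CTRL and 2.98 in IR12 (chr13:55061562-55173692 on rn6), a ratio of 7.29 and a log2 ratio of FPKM + 1 of 1.50, at rank 448. The other genes above 0 in both libraries were also set against this general leukocyte gene. Apart from *Lyz2*, these genes and *Ptprc* itself were under 1 FPKM in CTRL. With 1 library each, how far the ratios moved is not read as a difference between the genes. The FPKM of *Lyz2* over that of *Ptprc* was 23.8 in CTRL and 25.8 in IR12, that of *Itgam* 1.70 and 1.92, that of *Lcn2* 1.16 and 3.96, that of *Itgb2* 0.485 and 0.727 and that of *Cd68* 1.07 and 0.553.

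*Cd68* encodes a heavily glycosylated membrane protein of the lysosomes of macrophages and microglia. It had the smallest difference of the 9 genes above 0, with an FPKM of 0.437 in CTRL against 1.65 in IR12 (chr10:56268720-56270640 on rn6). The ratio was 3.76. The log2 ratio of FPKM + 1 was 0.88, at rank 1103, which is under 2-fold as deposited, although it was 1.70 with a pseudocount of 0.1 and 1.11 with both columns scaled to the same sum.

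*Irg1*, now named *Acod1*, encodes the mitochondrial enzyme that makes itaconate in activated macrophages and neutrophils. It was listed at 0 in CTRL but reached an FPKM of 3.21 in IR12 (chr15:93613022-93622332 on rn6), with a log2 ratio of FPKM + 1 of 2.07, at rank 247. *Lilrb4* encodes an inhibitory immunoglobulin-like receptor of myeloid cells that signals through phosphatases. It was likewise listed at 0 in CTRL, and it had an FPKM of 5.56 in IR12 (chr1:73393850-73399579 on rn6), with a log2 ratio of 2.71, at rank 144. In IR12 *Lilrb4* stood beside *Itgam* in level, and *Irg1* beside *Ptprc*.

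No read counts were used here, but olfactory receptor genes of a single exon give a step that may be the FPKM of 1 read. In genes of 939 bases, the commonest length among them, the lowest FPKM above 0 was 0.0881 in CTRL and 0.0516 in IR12, and all 5 values above 0 in CTRL and all 15 in IR12 lay within 1% of a whole multiple of it. The step was 1.71 times larger in CTRL, which can reflect the depth of the libraries and the scaling of the columns alike. For a gene of that length, the level of *Cd68* would be 4.96 steps in CTRL and 31.9 in IR12, and that of *Itgb2* 2.25 and 41.9. For *Lcn2* the same step gives 5.36 and 229, for *Itgam* 7.86 and 111, for *Ptprc* 4.63 and 57.7, and for *Lyz2* 110 and 1490. The transcripts of these genes have other lengths, and a longer transcript holds more reads at the same FPKM, so these are a rough gauge and not read counts.

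**Figure D2:**
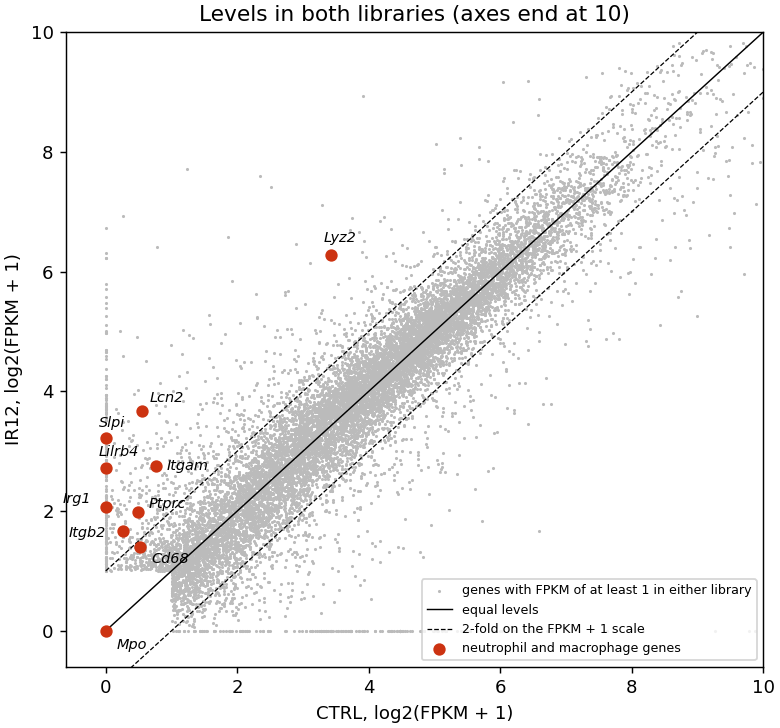
Level of each gene with an FPKM of at least 1 in either library (grey) and of the 10 neutrophil and macrophage genes (red), as log2(FPKM + 1) in CTRL (horizontal) and IR12 (vertical), 1 library each. The dashed lines mark 2-fold on this scale, with 8 of the 10 genes on or above the upper one, *Cd68* between the lines and *Mpo* at the origin.

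The scale of the columns affects such comparisons. The FPKM values summed to 1402320 in CTRL and 895200 in IR12, and genes with a listed locus under 300 bp held 33.0% and 18.8% of these sums. As deposited, 892 genes passed 2-fold in the direction of IR12 and 832 in the direction of CTRL. With both columns scaled to the same sum, as for TPM values, the counts were 2817 and 436, and the median log2 ratio of genes with an FPKM of at least 1 in both libraries moved from 0.03 to 0.60. On that scale 9 of the 10 genes, *Cd68* included, passed 2-fold.

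The genes nearest to *Lcn2*, *Slpi* and *Lyz2* were found by the distance in log2(FPKM + 1) over the 2 libraries. Nearest to *Lcn2* were *Cish*, a feedback inhibitor of cytokine signalling, with an FPKM of 0.700 in CTRL against 12.7 in IR12 (distance 0.23), the poliovirus receptor gene *PVR* (0.26) and the interferon-induced GTPase gene *Gbp5* (0.27). Nearest to *Slpi* were a vault RNA and a U1 small nuclear RNA, each at 0 in CTRL and 8.29 in IR12 (distance 0.01 each), and *Plau*, the urokinase gene, at 0 and 8.54 (0.03). Nearest to *Lyz2* were *Mlf1* (0.34), the kinase gene *Rps6ka2* (0.48) and *Chi3l1* (0.48). With 2 libraries a short distance says only that the values are alike.

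Other genes of the same leukocyte functions were described from 9 lists, which leave out the 10 genes and hold 128 symbols, 117 of them in the table. In all, 41 of the 117 passed 2-fold in the direction of IR12 and 2 in the direction of CTRL, and 65 of the 117 had an FPKM of at least 1 in either library, the basis on which 6.56% and 6.12% of the 13599 genes passed. The lists were chosen with earlier results of these data known, so nothing is read from these shares either. A gene under 1 FPKM in CTRL passes the minimum only through a higher level in IR12, so the minimum itself favours calls in that direction. Among the genes named below, *Fcgr2b*, *Mrc1* and *Pilra* are each at a listed locus of 2 genes, *Plek* and *Gpr34* of 3, and *Gzmb* and *Mcpt1* of 4, and how reads were divided there was not checked.

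Of 16 neutrophil granule and cytosol genes in the table, 5 had an FPKM of at least 1 in either library, and all 5 were at least 2-fold higher. In CTRL 0 of the 16 had an FPKM of at least 1. All 5 thus passed the minimum through IR12 alone, and their count is not read as a result. The median log2 ratio of the 16 was 0.10. The calcium-binding alarmin genes *S100a9* and *S100a8*, whose products fill the neutrophil cytosol, had FPKM of 0.199 and 0 in CTRL against 23.0 and 12.8 in IR12. The gelatinase gene *Mmp9* had 0.0441 in CTRL and 1.33 in IR12, and the ficolin gene *Fcnb* was listed at 0 in CTRL but stood at 1.16 in IR12. Listed at 0 in both libraries, as *Mpo* was, were 6 genes. These were the primary granule protease genes *Elane*, *Prtn3* and *Ctsg*, the defensin gene *Defa5*, the lactoferrin gene *Ltf* and the surface protein gene *Cd177*. *Elane* and *Prtn3* lie in a listed locus shared by 20 genes. The summed FPKM of the list was 0.588 in CTRL and 40.4 in IR12, where *S100a9* and *S100a8* made up most of it.

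Of 11 neutrophil receptor genes, 5 had an FPKM of at least 1 in either library, all 5 were at least 2-fold higher and the median of the 11 was 0.93. In CTRL 1 gene had an FPKM of at least 1 and in IR12 5 did. Most of the 5 thus passed the minimum through IR12 alone, and their count is not read as a result. The most abundant was *Alox5ap*, which serves leukotriene synthesis, at 2.48 in CTRL and 10.4 in IR12. The decoy interleukin-1 receptor gene *Il1r2* had 0.0525 and 3.75. The chemokine receptor gene *Cxcr2* was listed at 0 in CTRL but stood at 1.59 in IR12, while *Cxcr1* and *Fpr1* were listed at 0 in both. The granule and receptor lists thus each held genes with FPKM over 1 in IR12 beside genes listed at 0.

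Of 21 monocyte and macrophage genes, 13 had an FPKM of at least 1 in either library, 12 were at least 2-fold higher, 0 were at least 2-fold lower and the median of the 21 was 1.15. In CTRL 4 genes had an FPKM of at least 1 and in IR12 13 did. Most of the 13 thus passed the minimum through IR12 alone, and the count of 12 is not read as a result. The galectin gene *Lgals3* had an FPKM of 5.31 in CTRL against 29.1 in IR12. The inhibitory Fc receptor gene *Fcgr2b* had 1.16 and 18.0, and *Gpnmb*, a glycoprotein of phagocytes and pigment cells, had 2.22 and 17.6. The C-type lectin receptor gene *Clec4e* was listed at 0 in CTRL but stood at 2.94 in IR12, and the scavenger receptor gene *Marco* was listed at 0 in both. The genes that were lower as deposited were 4, named after their values were seen. *Vcan* had 15.0 in CTRL and 9.25 in IR12, *F13a1* had 0.214 and 0.0209, *Cd163* had 0.131 and 0.0110, and *Mrc1* had 0.258 and 0.166, with *Mrc1* no longer lower when the columns were scaled to the same sum. *Cd163*, *Mrc1* and *F13a1* are known from tissue macrophages such as those around vessels. Their levels were under 1 FPKM in both libraries.

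Of 20 pan-leukocyte signalling and cytoskeleton genes, 15 had an FPKM of at least 1 in either library. Of these, 8 were at least 2-fold higher, and the median of the 20 was 0.72. In CTRL 8 genes had an FPKM of at least 1 and in IR12 15 did. Most of the 8 past 2-fold thus passed the minimum through IR12 alone, and their count is not read as a result. The signalling adaptor genes *Fcer1g* and *Tyrobp* had an FPKM of 2.42 and 1.62 in CTRL against 12.7 and 10.2 in IR12. *Plek*, a substrate of protein kinase C, had 0.446 and 5.70. *Cd52* was listed at 0 in both.

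The phagocyte NADPH oxidase makes superoxide from a membrane pair and cytosolic subunits. The 4 genes read here were higher in IR12, 1 of them at least 2-fold, and the median was 0.71. The gene past 2-fold, *Ncf4*, passed the minimum through IR12 alone, so the count is not read as a result. The cytosolic subunit genes *Ncf4* and *Ncf1* had an FPKM of 0.201 and 0.457 in CTRL against 1.97 and 1.67 in IR12. On FPKM + 1 *Ncf1* was under 2-fold as deposited and at a log2 ratio of 1.11 on the scale of equal sums. The membrane subunit genes *Cybb* and *Cyba* had 0.812 and 1.49 in CTRL against 1.64 and 2.55 in IR12, both under 2-fold on FPKM + 1 as well.

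Among 10 leukocyte adhesion genes, 8 had an FPKM of at least 1 in either library. Of these, 4 were at least 2-fold higher, and the median of the 10 was 0.70. In CTRL 1 gene had an FPKM of at least 1 and in IR12 8 did. All 4 thus passed the minimum through IR12 alone, and their count is not read as a result. *Icam1*, which encodes the ligand of the Mac-1 integrin on the vessel wall, had an FPKM of 0.718 in CTRL against 7.32 in IR12. The selectin genes *Sele* and *Selp*, whose products catch rolling leukocytes on activated endothelium, had 0.142 and 0.0656 in CTRL and 3.54 and 2.12 in IR12. *Itgax*, listed at the same locus as *Itgam*, had 0.174 and 1.62. *Vcam1*, the most abundant gene of the list, had 10.8 in CTRL and 8.48 in IR12, and was higher in IR12 when the columns were scaled to the same sum (log2 ratio 0.27 against -0.32 as deposited).

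Among 13 genes induced in activated macrophages, where *Irg1* belongs by function, 8 had an FPKM of at least 1 in either library. Of these, 5 were at least 2-fold higher and 1 at least 2-fold lower, and the median of the 13 was 0.57. In CTRL 4 genes had an FPKM of at least 1 and in IR12 8 did. Most of the 5 thus passed the minimum through IR12 alone, and their count is not read as a result. The interleukin-1 beta gene *Il1b* had an FPKM of 0.109 in CTRL against 12.1 in IR12, and *Il1rn*, which encodes the antagonist of its receptor, had 0.0706 and 4.09. The receptor gene *Hcar2* was listed at 0 in CTRL but stood at 2.29 in IR12. The mitochondrial superoxide dismutase gene *Sod2* was the most abundant, at 37.6 and 89.9. The cationic amino acid transporter gene *Slc7a2*, the 1 that was lower, had 7.57 in CTRL and 2.07 in IR12, and did not pass 2-fold on the scale of equal sums (log2 ratio -0.95 against -1.48 as deposited). *Tnf* was listed at 0 in both libraries, at a listed locus shared by 30 genes.

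Other inhibitory receptors of leukocytes were listed beside *Lilrb4*. Of 13 in the table, 7 were higher and 5 lower, and the median was 0.17. No call at 2-fold is given for this list, since 2 of the 13 had an FPKM of at least 1 in either library. The most abundant were *Sirpa*, at 25.4 in CTRL and 21.5 in IR12, and *Lair1*, at 10.9 and 7.60, both of which were higher in IR12 on the scale of equal sums (log2 ratio 0.39 and 0.11). *Pilra* was listed at 0 in both. Of 9 other secreted antimicrobial and antiprotease genes, the company of *Lcn2* and *Slpi*, 5 had an FPKM of at least 1 in either library, 1 was at least 2-fold higher, 1 at least 2-fold lower and the median of the 9 was 0.09. The chitinase-like gene *Chi3l1* had 14.0 in CTRL and 79.0 in IR12, close to the levels of *Lyz2*. *Wfdc1*, which encodes a protein with the same fold as the protease inhibitor of *Slpi*, had 4.06 and 0.685. *Wfdc12* was listed at 0 in both.

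**Figure D3:**
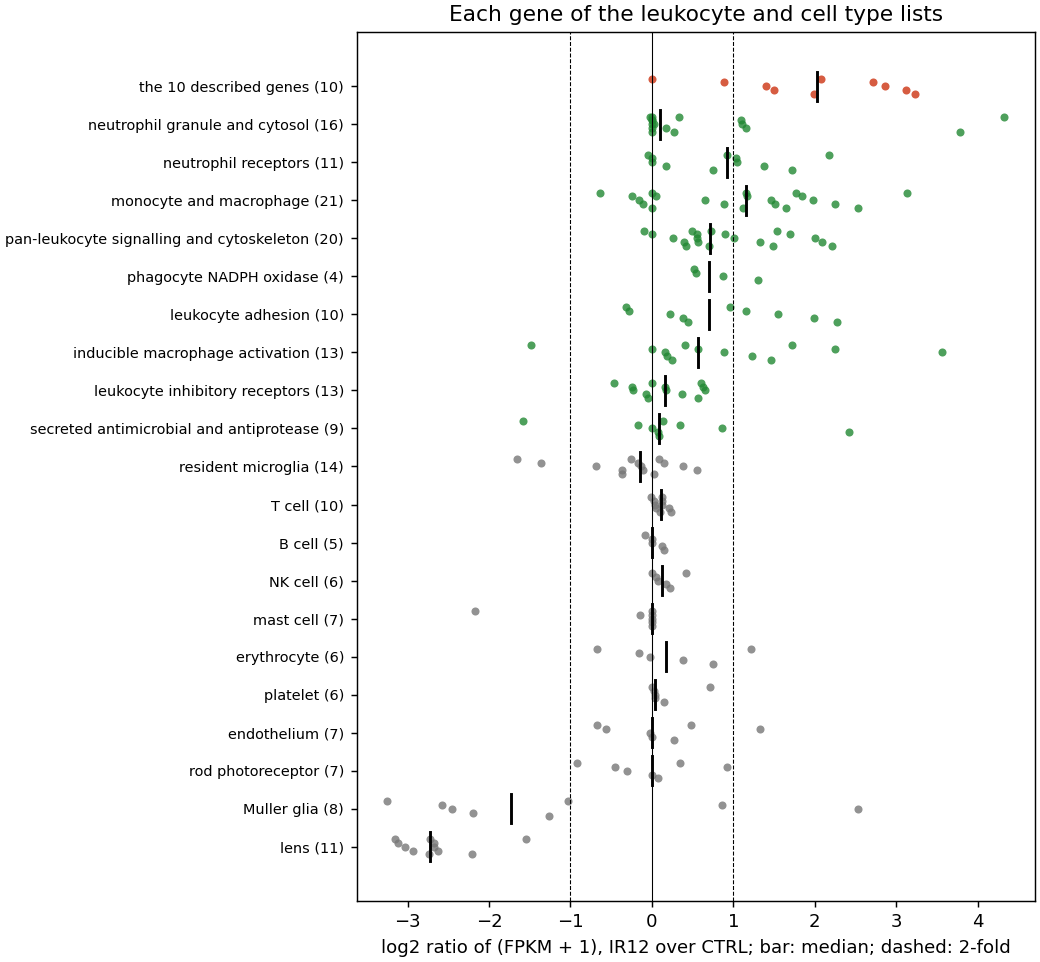
Log2 ratio of FPKM + 1, IR12 over CTRL, of each gene of the 10 described genes (red), the leukocyte lists (green) and the marker lists of other cell types (grey), with the number of genes in brackets, the median as a bar and 2-fold as dashed lines. The median is 2.03 for the 10 genes, 1.15 for monocyte and macrophage genes, -0.15 for resident microglia and -2.73 for lens.

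Marker genes of other cells were read in the same way, since several of the 10 genes are shared with microglia and other leukocytes. Of 14 genes of resident microglia, 5 had a higher FPKM in IR12 and 9 a lower one. In this list 9 had an FPKM of at least 1 in either library, 0 were at least 2-fold higher and 2 at least 2-fold lower. Their median was -0.15, and their summed FPKM was 34.7 in CTRL and 24.5 in IR12. On the scale of equal sums the median was -0.04 and the ratio of the sums was 1.11, so the direction of the sum depends on the scaling. The purinergic receptor gene *P2ry12* had 1.67 in CTRL and 0.650 in IR12, at a listed locus shared by 7 genes, *Gpr34* had 4.56 and 0.762, and *Olfml3* had 11.1 and 3.71. These 3 were lower under each scaling tried, with *Olfml3* no longer past 2-fold on the scale of equal sums (log2 ratio -0.80). The complement gene *C1qb* was among the 5 that were higher, at 1.77 and 3.06. None of the 14 markers was listed at 0 in both libraries.

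Lymphocyte markers were low in both libraries. The summed FPKM of 10 T cell genes was 1.84 in CTRL and 2.67 in IR12, led by *Cd4*, which macrophages of the rat also carry, at 1.09 and 1.08. That of 5 B cell genes was 0.139 and 0.279, led by *Cd22*, with *Cd79a* and *Pax5* listed at 0 in both. That of 6 NK cell genes was 0.0956 and 0.827, led in IR12 by *Klrk1*, which was listed at 0 in CTRL, with *Gzmb* listed at 0 in both. No call at 2-fold is given for these 3 lists, since 1 of their genes, *Cd4*, had an FPKM of at least 1 in either library. Of 7 mast cell genes, the protease genes *Cma1*, *Cpa3*, *Mcpt1*, *Tpsab1* and *Tpsb2* were listed at 0 in both, and the sum of 26.5 in CTRL and 8.88 in IR12 came from *Fcer1a* (20.8 and 3.85) and *Kit* (5.65 and 5.03).

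Blood in the vessels also holds leukocytes, so markers of its other cells and of the vessel wall were read as well. The summed FPKM of 6 erythrocyte genes was 28.6 in CTRL and 53.2 in IR12, led by *Hbb* at 20.4 and 35.1, with 1 gene, *Hba-a2*, at least 2-fold higher (6.77 and 17.1). Of the 6, 3 were higher and 3 lower, and 2 had an FPKM of at least 1 in either library. On the scale of equal sums the ratio of the sums was 2.91 against 1.86 as deposited, and *Hbb* passed 2-fold too (log2 ratio 1.37). The summed FPKM of 6 platelet genes was 0.386 and 1.24, led in IR12 by *Pf4*, which was listed at 0 in CTRL, with *Ppbp* listed at 0 in both. That of 7 endothelial genes was 131 and 109.7, led by *Kdr*, with 6 genes at an FPKM of at least 1 in either library and 1, *Flt1*, at least 2-fold higher (12.3 and 32.3), and on the scale of equal sums the ratio of the sums was 1.31. The part of blood in the levels of the 10 genes was not tested.

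Marker genes for cells of the eye itself were read as well. The summed FPKM of 7 rod genes was 10282 in CTRL and 11953 in IR12, a difference smaller than that of *Sag* alone. Of the 7, 4 were higher and 3 lower, among them the recoverin gene *Rcvrn* (1558 and 825) and the transcription factor gene *Nrl* (54.1 and 39.4), and none passed 2-fold as deposited. On the scale of equal sums 6 were higher, *Nrl* included (log2 ratio 0.18), and 1 lower, and *Sag* passed 2-fold (1.57). Of 8 Müller glia genes, 6 were at least 2-fold lower and 1 at least 2-fold higher. Their sum was 1171 in CTRL and 446 in IR12, led in CTRL, but not in IR12, by the glutamine synthetase gene *Glul* (754 and 126). Under each of the 3 scalings by column sums, 4 were at least 2-fold lower and 2 at least 2-fold higher. The gene that was at least 2-fold higher as deposited was *Gfap*, an intermediate filament gene of reactive glia, at 2.95 and 21.9. All 11 lens genes were at least 2-fold lower in IR12, with a sum of 3693 in CTRL and 441 in IR12, led by *Cryba1* (1614 and 196). None of the lens genes was listed at 0. The part of these differences in the levels of the 10 genes was not tested, and a difference between the conditions cannot be told apart from a difference between the dissections.

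**Figure D4:**
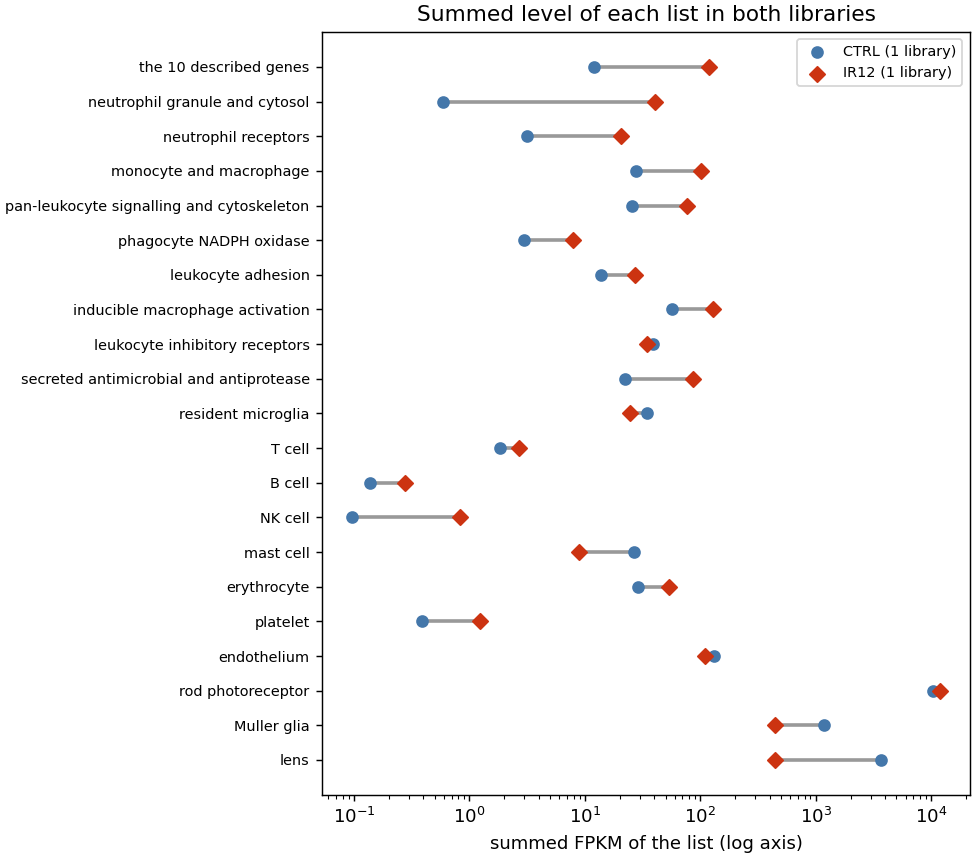
Summed FPKM of the 10 described genes, the leukocyte lists and the marker lists in CTRL (circles) and IR12 (diamonds), 1 library each, on a log axis. The sum of the 10 genes is 11.9 in CTRL and 118 in IR12, while that of resident microglia is 34.7 and 24.5 and that of lens 3693 and 441.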

How the data were processed

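The 2 libraries were assigned to CTRL and IR12 by their sample titles, and both columns of the table were matched by name. The authors deposited gene-level FPKM, 1 column per library. The submitters' processing notes name STAR 2.5.2b, Cuffdiff 2.2.0 and the build rn6, with no role or order. The sources name the library kit in 2 ways, as a total RNA kit and as an mRNA kit, both with removal of ribosomal RNA. Listed starts count from 0 (97.8% of 1069 olfactory receptor loci under 1100 bp have an end minus start that is a multiple of 3) and were raised by 1.

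FPKM was used as deposited. The log2 ratio of FPKM + 1, IR12 over CTRL, was computed for each gene, and a gene was called at 2-fold among the 13599 genes with an FPKM of at least 1 in either library. No test was made, because there is 1 library per condition. The calling of genes was tested on simulated data, with levels above those of most of the 10 genes in CTRL. The members and lists were chosen with earlier results of these data known. The genes named from each list were picked, and not all of them taken, from the 4 genes with the largest absolute log2 ratio among those with an FPKM of at least 1, the most abundant gene, and genes listed at 0 in both libraries. Outside this rule, *Vcan*, *F13a1*, *Cd163*, *Mrc1* and *Hprt1* were named after their values were seen. Some genes of the planned lists are not reported here, and those lists were computed without them. Of the 128 symbols in the leukocyte lists, 117 were in the table, and the others were not analysed here. Promoter windows came from RefSeq (GRCr8), whose coordinates were not mixed with those on rn6. The motifs were picked after the windows of these genes had been read, and 3 forms of the NF-kB-type motif were tried, of which all are given.

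The results were recomputed with 0.1 in place of 1 as pseudocount, after centring on the median gene, with both columns at equal sums (as for TPM values), with the minimum FPKM raised to 5 or dropped, and with a fold of 4. After the data were seen, 2 further scalings were added. Python 3.11.15, numpy 2.4.6, pandas 2.3.3 and matplotlib 3.10.9 were used.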

Additional observations from a re-analysis of the deposited data

How the results depend on the processing

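Among the 10 genes, 9 stayed higher in IR12 under each scaling and pseudocount tried, but no setting could have lowered them. A pseudocount cannot turn the direction of a ratio, and each scaling by column sums raised IR12. Centring on the median gene took 0.03 off each log2 ratio, and the smallest of the 9, that of *Cd68*, was 0.88. This is therefore no measure of stability. Outside the 10 genes, some levels were lower in IR12 as deposited and higher with both columns scaled to the same sum. Among the genes named in the text these were *Vcam1*, *Mrc1*, *Sirpa*, *Lair1*, *Kit*, *Cd4*, *Nrl* and *Gapdh*. The summed levels of resident microglia, endothelium and inhibitory receptors were so as well. Of 96 counts under an alternative setting, 65 lay within 1.5 times the value as deposited. The 65 include counts with the minimum FPKM dropped, which could not move, and counts of 0 for inhibitory receptors. They are therefore no measure of stability. With a pseudocount of 0.1 the median log2 ratio of the 10 genes was 2.95, with centring on the median gene 2.01, and with both columns scaled to the same sum 2.25, against 2.03 as deposited. The minimum FPKM of 5 left 5 of the 10 genes, all at least 2-fold higher, with a median of 2.86, because fewer genes passed it. Of these, *Lyz2* alone passed it in CTRL. The others were under 1 FPKM in CTRL and passed through IR12 alone, so on FPKM + 1 they had to lie at least 2-fold higher. With a fold of 4, 5 of the 10 passed.

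The scaling moved the counts over all genes. Scaling both columns to the same sum shifted IR12 by 0.65 on the log2 scale, and 2817 genes were then at least 2-fold higher and 436 at least 2-fold lower, against 892 and 832. This scaling was first run by raising IR12 to the sum of CTRL before the pseudocount was added, and then replaced by bringing both columns to the sum that TPM values have, after the values of the first form had been seen. The first form is given as an added alternative. It gave 3051 and 473 genes, a median of 2.57 for the 10 genes, and 3 of 4 NADPH oxidase genes at least 2-fold higher against 1, while 2 were so with a pseudocount of 0.1, with both columns at equal sums and under the further scaling that follows. Equal sums over loci of at least 300 bp outside the lens list, added after the data were seen, shifted IR12 by 0.37 and gave 1699 genes at least 2-fold higher and a median of 2.33. Secreted antimicrobial and antiprotease genes at least 2-fold higher were 2 under each of these 3 scalings and with a pseudocount of 0.1, against 1.

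A fold of 4 left 260 genes higher and 270 lower. Under the minimum FPKM of 5 and under the fold of 4, in that order, genes past the fold were 2 and 2 for inducible macrophage activation, 1 and 1 for leukocyte adhesion, 3 and 3 for monocyte and macrophage, 2 and 2 for neutrophil granule and cytosol, 1 and 1 for neutrophil receptors, 4 and 2 for pan-leukocyte signalling, and 0 and 0 for the NADPH oxidase, since both settings admit fewer genes by construction.

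Each condition has 1 library, so no replicate was left out. No paired analysis was possible because the conditions share no pairs of libraries. The values of the 10 genes in CTRL, other than that of *Lyz2*, are under 1 FPKM, a 0 is only a listed 0, and the difference between the animals, the dissections and the conditions cannot be told apart.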
